A study of Mus musculus with 12 samples.

Results

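The baseline expression of the unexposed wild type mouse colon epithelium was read from the arrays titled as wild type colon without quercetin. These were 3 of the 12 arrays of the series. All 22626 probe sets of the array other than the manufacturer's controls were read on each of them, and those with a gene symbol of their own stood for 12393 genes. No test against another group was made, and the 9 other arrays are given in places as a range only.

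The mice were male, wild type, of the C57BL/6 strain and between 6 and 8 weeks old. They had been adapted for 14 days to a powdered soya-free diet named RM3, and received that diet without quercetin for the last 24 h. The other arrays came from wild type mice given quercetin, POR-null mice (without cytochrome P450 reductase) given quercetin and POR-null mice on the control diet, with 3 arrays for each group. The quercetin diet held 6200 ppm, which corresponded to 7 mg for each mouse. For every array the colon between caecum and rectum was rinsed and its epithelial layer scraped off, and total RNA of 3 mice was pooled, so that the wild type control group held 9 mice. A replicate was thus a pool of animals, and the spread between replicates is that between pools together with the laboratory steps.

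The colon epithelium is a sheet of crypts. Stem cells at the crypt base give rise to absorptive colonocytes, which take up salt, water and short-chain fatty acids, to goblet cells, which secrete mucus, and to rarer enteroendocrine and tuft cells. Colonocytes draw much of their energy from the oxidation of butyrate made by gut bacteria, and they detoxify the sulfide that the same bacteria release.

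The arrays were Affymetrix 430A mouse expression arrays, and the values were log2 signal. Signal medians were 5.96, 5.91 and 5.95 on arrays 1, 2 and 3, and single values lay between 2.70 and 14.01. Among the 3, array 1 stood apart. Over all probe sets the Pearson correlation was 0.995 between arrays 2 and 3, 0.986 between arrays 1 and 2 and 0.985 between arrays 1 and 3, given as a description across probe sets. At least 1 log2 unit separated arrays 2 and 3 at 56 probe sets, arrays 1 and 3 at 280 and arrays 1 and 2 at 349. List counts that changed when array 1 was left out, and the medians of several lists, are therefore given both ways. With 3 arrays, no test was made, and each mean stands with its SD (n = 3).

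A level for genes not in use came from 60 measured genes known for eye, sperm, mammary gland, brain, pituitary, hair, skin and similar tissues, called off-tissue genes below. Each gene was read at its brightest probe set. The off-tissue genes had a median signal of 5.22 and a 95th percentile of 6.70, which served as the level. The brightest of them was Mbp, a myelin protein, at 8.00 ± 0.14 (SD, n = 3). On all 3 arrays 4884 of 12393 genes, or 39.4%, lay above the level, and this share is the background for each count of list members given below. On at least 1 array 5596 genes did, so that 712 passed on some arrays and not on others. Without array 1 the level was 6.66 and 5158 genes, 41.6%, lay above it on both remaining arrays. The median gene had a mean of 6.34. Means of at least 8 were seen for 2419 genes and of at least 12 for 63. The rank of a gene by signal does not order transcript amounts, because probes differ in how strongly they bind, and a signal below the level does not show absence.

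**Figure D1:**
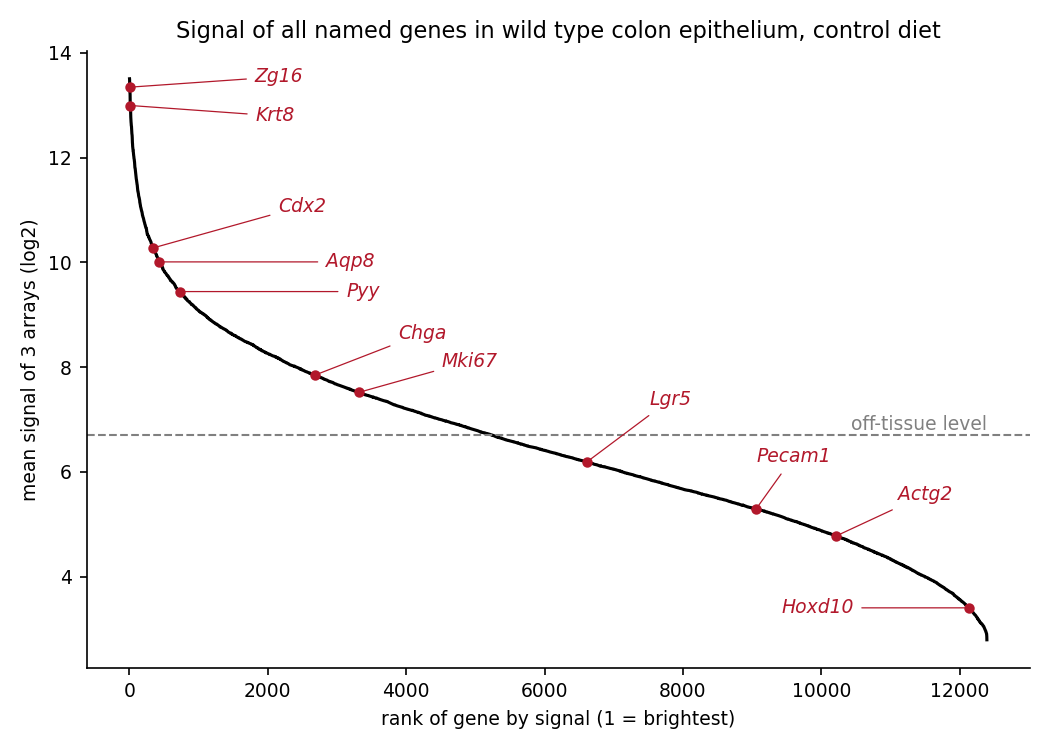
Mean log2 signal over the 3 wild type control arrays (vertical axis) of all 12393 genes against their rank by signal (horizontal axis, 1 = brightest), with 11 genes marked in red and the off-tissue level of 6.70 dashed. Zg16 and Krt8 stood near the top at 13.35 and 13.00, Lgr5 at 6.19 and Actg2 at 4.77 stood below the level.

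The brightest genes were those of the surface and mucus of the colon, together with genes that every cell uses. Ceacam1, an adhesion molecule of the brush border, came first with 13.39, 13.56 and 13.57 on arrays 1, 2 and 3. Lypd8, a secreted protein that keeps flagellated bacteria away from the epithelium, followed with 13.43, 13.54 and 13.50. Zg16, a goblet cell lectin that binds bacteria, had 13.38, 13.34 and 13.32. These values lay within 0.18 log2 units of each other for each of the named genes. Among the 30 brightest were also the mucus proteins Clca1 (13.29 ± 0.31, SD, n = 3) and Fcgbp (13.00 ± 0.47), the peptide hormone Guca2a (13.23 ± 0.27), and the enzyme Car1 (13.02 ± 0.36), a carbonic anhydrase of colonocytes. Membrane mucins were represented by Muc3 (12.74 ± 0.03) and Muc13 (12.57 ± 0.13). The galectins Lgals3 (13.00 ± 0.19) and Lgals4 (12.98 ± 0.08), the keratins Krt8 (13.00 ± 0.04) and Krt19 (12.64 ± 0.10), the receptor Pigr that carries IgA into the lumen (12.60 ± 0.10) and the cytochrome P450 Cyp2c55 (12.69 ± 0.59) belonged to the same group. Of genes used in most cells, the 30 held Actb (actin), Fth1 (the ferritin heavy chain), Tpt1, Eef1a1 (translation elongation), Tmsb10, H2-K1 and B2m (MHC class I), Rpl41 and Rps29 (ribosome), Slc25a5 (the mitochondrial ADP and ATP exchanger), Uqcrb, Cox6a1 and ND5 (respiratory chain), and Atp1b1 (the sodium pump). The unnamed gene 1810065E05Rik completed them at 12.68 ± 0.62.

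The order at the top was kept from pool to pool only in part. The 30 brightest genes of each array had 22 in common to all 3 arrays and 28 in common to arrays 2 and 3. Of the 100 brightest, 86 were shared by all 3 arrays and 95 by arrays 2 and 3, and of the 500 brightest, 434 and 473. The 30 genes of the highest means had SDs between 0.03 and 0.62 with a median of 0.10. In 2 of them, Cyp2c55 and 1810065E05Rik, the arrays differed by 1 log2 unit or more. Cyp2c55 had 12.02, 13.12 and 12.93 on arrays 1, 2 and 3, and 1810065E05Rik had 11.97, 13.12 and 12.94, with array 1 lowest in both.

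Absorptive colonocytes were represented by all of their 18 measured markers, each above the off-tissue level on all 3 arrays. Their median signal of 10.70 exceeded that of 98.1% of genes, and without array 1 the median was 10.93. The membrane-bound carbonic anhydrase Car4 had 11.55, 11.47 and 11.72. Slc26a3, the chloride and bicarbonate exchanger of the colon surface, had 10.43, 10.04 and 10.36. Aqp8, a water channel, had 10.48, 9.79 and 9.76, highest on array 1. Car1 had 12.62, 13.31 and 13.13, and Guca2a 12.92, 13.41 and 13.35, both lowest on array 1. The lowest members were the efflux pump Abcg2 at 9.02 ± 0.40 and Guca2b, a peptide related to Guca2a, at 8.37 ± 0.49. Array 1 was the lowest for 11 of the 18 markers, against 35.9% of all genes, and the mean of the list was 11.04, 11.25 and 11.28 on arrays 1, 2 and 3.

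Of 21 genes of ion and water transport, 16 lay above the level. After Atp1b1 (12.67 ± 0.14) and the markers named above came the aldosterone-responsive kinase Sgk1 (10.20 ± 0.26) and Hsd11b2 (9.70 ± 0.07), the enzyme that protects the mineralocorticoid receptor from glucocorticoids. The sodium channel subunits that pair with the alpha subunit in aldosterone-driven sodium uptake were below it, with 5.78 ± 0.21 for Scnn1g and 5.30 ± 0.21 for Scnn1b. The mean of this list moved little, with 8.59, 8.48 and 8.60 on the 3 arrays.

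Goblet cells were likewise represented by all of their 18 measured markers, at a median of 10.27, or 9.93 without array 1. The mucin Muc2 and Galnt12, also on this list of 20, were not among the measured genes. Tff3, the trefoil peptide secreted with mucus, had 12.80, 12.27 and 12.41 on arrays 1, 2 and 3. Retnlb, a goblet cell protein with activity against bacteria, had 12.86, 12.03 and 11.67. Fcgbp had 13.53, 12.62 and 12.85, and Clca1, a protease that loosens mucus, had 13.64, 13.04 and 13.20. All of these were highest on array 1, as were 13 of the 18 markers, against 38.7% of all genes. The lowest members were the channel Best2 at 7.39 ± 0.48 and the protease Tpsg1 at 7.29 ± 0.27. The list averaged 10.72 on array 1, 10.26 on array 2 and 10.34 on array 3. Array 1 thus combined the highest signal for 13 goblet cell markers with the lowest for 11 colonocyte markers. In pooled tissue fewer cells of a type and less RNA per cell cannot be told apart.

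Genes of epithelial keratins, adhesion and tight junctions were bright as a group. All 26 measured genes lay above the level, at a median of 10.31. Krt8 had 12.96, 13.04 and 12.99, Krt20, a keratin of mature surface cells, had 12.38, 12.38 and 12.47, and the adhesion molecule Epcam had 12.32, 12.24 and 12.09. Their median SD of 0.11 was that of all probe sets. The lowest 2 were claudins, which seal the tight junction: Cldn23 at 7.96 ± 0.10 and Cldn8 at 7.92 ± 0.68, the second with 8.45, 7.15 and 8.15.

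Genes of energy metabolism were bright as a group. All 28 measured genes of a list of respiratory chain and ATP synthase subunits lay above the level, at a median of 10.89. The list does not hold Uqcrb (12.81 ± 0.10) and ND5 (12.69 ± 0.08), which are named above. The 5 of its members with the highest signal were subunits of cytochrome c oxidase, Cox6a1 (12.60 ± 0.15), Cox5b (12.50 ± 0.04), Cox5a (12.18 ± 0.14), Cox7a2 (12.05 ± 0.17) and Cox8a (12.05 ± 0.09). Array 1 was the lowest for 27 of the 28, by small amounts, since the list averaged 10.71 there, 10.92 on array 2 and 10.90 on array 3. All 17 genes of fatty acid uptake and oxidation also lay above the level, at a median of 9.74. Hadh, a mitochondrial dehydrogenase of fatty acid oxidation, had 11.80, 11.95 and 11.83. The butyrate importer Slc16a1 had 9.70, 10.20 and 9.77, and the sodium-coupled importer Slc5a8 had 8.72, 9.00 and 9.32. Array 1 was the lowest for every gene of this list, and the list averaged 9.58, 9.97 and 9.82 on arrays 1, 2 and 3.

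The enzymes of sulfide oxidation were bright too. Ethe1, the persulfide dioxygenase, had 11.85, 12.39 and 12.21. Selenbp1, a methanethiol oxidase, had 11.52, 12.36 and 12.33. Sqor, the quinone reductase that takes the electrons of sulfide, had 11.28, 11.54 and 11.49. Of 8 measured genes 7 lay above the level on all 3 arrays, and all 8 did so on arrays 2 and 3 when array 1 was left out; Suox, sulfite oxidase, was the exception with 6.69, 6.78 and 7.18. All 8 were lowest on array 1. Glycolysis had 11 of 12 genes above the level, headed by Ldha (11.93 ± 0.11) and Aldoa (11.89 ± 0.21), while Pfkm, the muscle form of phosphofructokinase, stood at 6.25 ± 0.08. Of 47 ribosomal protein genes 37 lay above the level, at a median of 11.29 and a median SD of 0.06. The 2 of the lowest signal, Rpl3l (4.36 ± 0.09) and Rpl39l (3.56 ± 0.05), are the forms known from muscle and testis.

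Enzymes and pumps of xenobiotic metabolism came next. Of 34 measured genes 22, or 64.7%, lay above the level on all 3 arrays, and 25 on arrays 2 and 3 when array 1 was left out. Cyp2c65 had 9.93, 11.48 and 11.20, and Cyp2c55 is given above. Both are P450 enzymes of the gut. The glutathione transferase Gstp1 had 11.44, 11.92 and 11.90, and the efflux pump Abcb1a had 10.06, 10.82 and 10.73. All 4 were lowest on array 1. The glucuronidating enzyme Ugt2b34 averaged 10.51 ± 0.27. The pumps Abcc2 (3.79 ± 0.28) and Abcb1b (3.41 ± 0.03) had the lowest signals. Array 1 was the lowest for 27 of the 34 genes, against 35.9% of all genes, and the list averaged 7.98, 8.36 and 8.30 on the 3 arrays.

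Of 18 genes of epithelial defence 10 lay above the level, and 11 without array 1. Beside Lypd8 and Pigr these included Dmbt1, a secreted scavenger receptor, with 12.02, 12.81 and 12.65. Saa1, an acute phase protein also made by gut epithelium, averaged 11.37 ± 0.08. Reg3b, a lectin with activity against bacteria, had 9.78, 10.24 and 11.09, the widest spread of the 5 brightest. Cd55 (5.37 ± 0.26) and the inducible nitric oxide synthase Nos2 (5.32 ± 0.07) were at the low end.

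Transcription factors of the intestinal epithelium gave 20 of 30 genes above the level. The brightest were Klf5 (11.14 ± 0.06), active in crypts, Klf4 (11.02 ± 0.10), active in differentiated cells, and Hnf4a (11.01 ± 0.11), a nuclear receptor of enterocytes. Elf3 (10.44 ± 0.11) followed, and the intestinal homeobox factor Cdx2 had 9.83, 10.67 and 10.33. Atoh1 (9.59 ± 0.12) and Spdef (9.10 ± 0.37) direct the secretory lineage. Foxa1 (9.52 ± 0.23), Vdr, the vitamin D receptor (9.27 ± 0.09), Cdx1 (9.03 ± 0.07), Ehf (8.89 ± 0.22), Foxa3 (8.35 ± 0.06), Pparg (8.34 ± 0.29) and Esrra (8.21) were also above the level. The remaining genes above it had means between 7.41 and 7.83, namely Gata6, Nr1i2, Grhl2, Nr1h4, Foxa2 and Hes1. The Gata factors of the small intestine differed from this, with 5.43 ± 0.27 for Gata4 and 5.90 for Gata5. Pdx1, which marks duodenum and pancreas, was the lowest of the list at 4.36 ± 0.03. Maf (5.17), Ahr (5.83), Rora (5.98), Ppara (6.08), Sox9 (6.18), Hnf4g (6.18) and Tcf7l2 (6.39) were below the level at every probe set. Sox9 and Tcf7l2 are known to act in the crypt.

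The Hox genes, which record position along the gut, were mostly below the level, with 5 of 31 above it on all 3 arrays. These were Hoxb9 (7.13, 8.01 and 8.11), Hoxa9 (7.72, 7.58 and 7.42), Hoxa3 (7.68, 7.38 and 7.38), Hoxc9 (7.40, 7.21 and 7.31) and Hoxa7, with a mean of 6.97. Hoxb13, a gene of the hindgut end of the body axis, had 8.66, 6.30 and 7.64 and thus passed on arrays 1 and 3 only. The other 25 Hox genes had means between 3.40, for Hoxd10, and 6.73, for Hoxb3.

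Some markers of rarer epithelial cells and of the crypt lay above the level. With all 3 arrays none of the lists in this paragraph exceeded the 39.4% of all genes. Of 21 enteroendocrine genes 6 lay above the level, which is below the share of all genes. Pyy, the appetite-reducing hormone of colonic L cells, had 9.66, 9.04 and 9.63, and Chgb, a granule protein, had 8.45, 8.99 and 9.23. Chga had 7.37, 7.96 and 8.21. The hormones Nts (8.24 ± 0.56) and Sct (8.18 ± 0.33) also passed, as did Gcg at 7.84, whereas Cck of the small intestine stood at 4.12 ± 0.01. Of 13 tuft cell genes only the lineage factor Pou2f3 passed, at 7.18 ± 0.08. Crypt base and stem cell markers gave 6 of 16 above the level (37.5%, near the share of all genes), or 7 without array 1. Among them were Prom1 at 11.19 ± 0.22 and the transporter Slc12a2 at 9.51 ± 0.12, both of which other epithelial cells also use. Lgr5, the receptor that defines stem cells, had 6.20, 6.12 and 6.25. Proliferation genes gave 9 of 25 (36.0%, also near that share), headed by Pcna (9.01 ± 0.05), Mcm7 (8.28 ± 0.19) and Ccna2 (7.91 ± 0.36). Mki67 had 7.79, 7.57 and 7.19. Array 1 was the highest for 21 of these 25 genes, with list means of 6.69, 6.50 and 6.49 on arrays 1, 2 and 3.

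**Figure D2:**
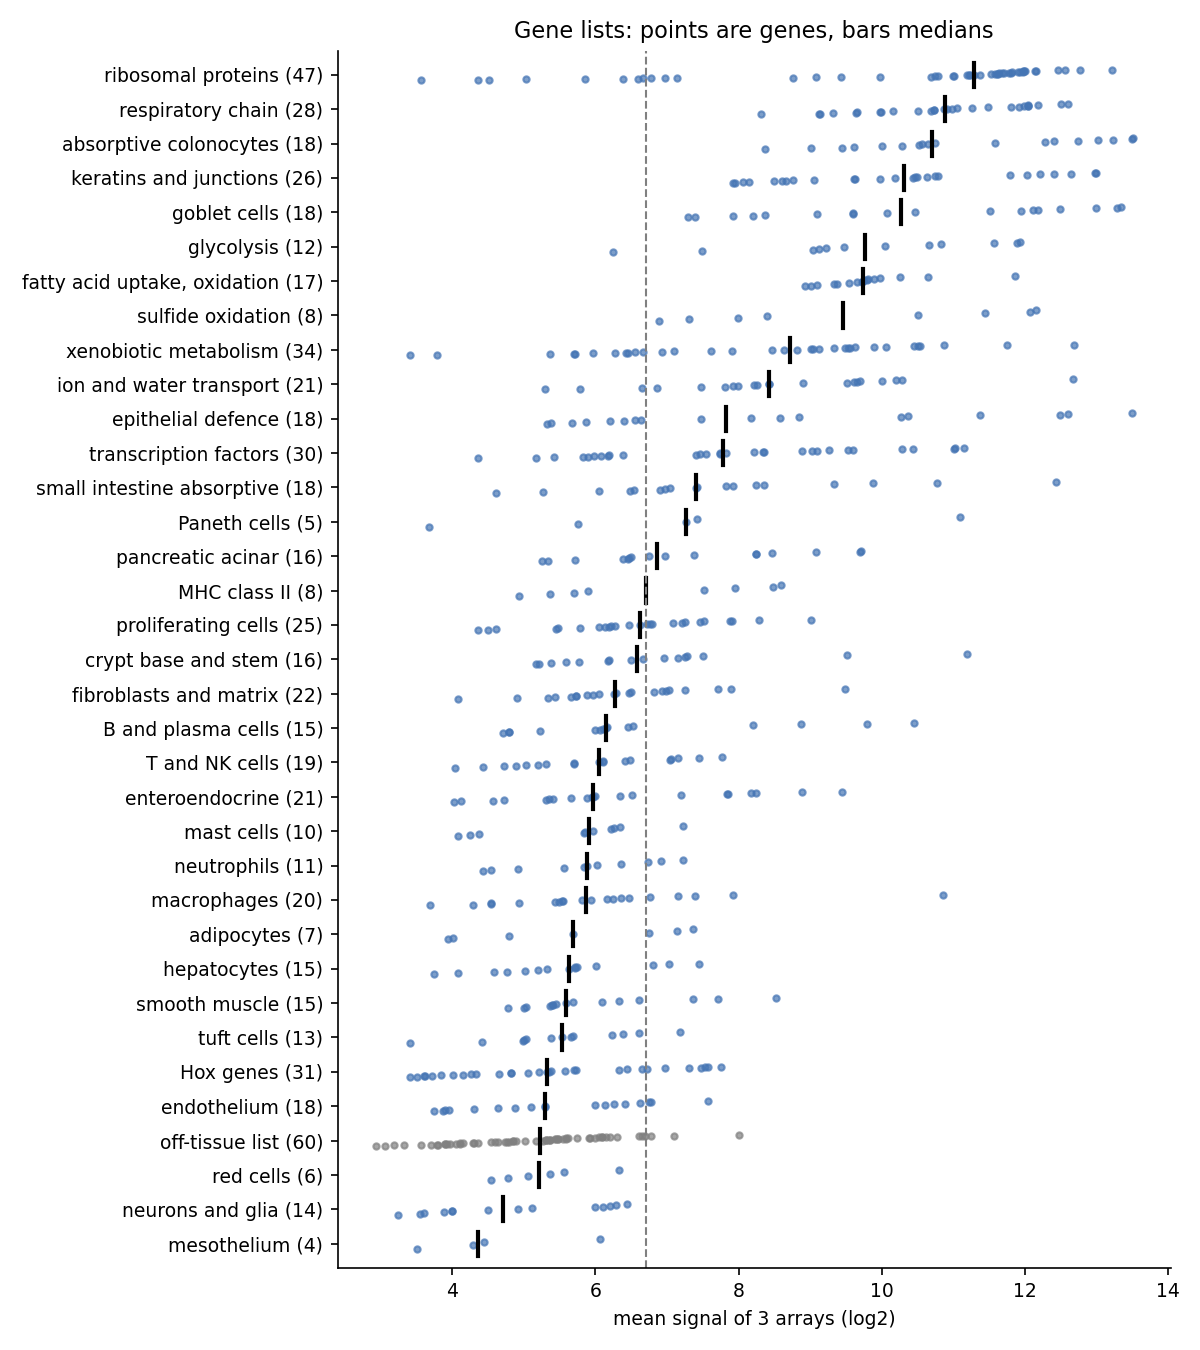
Mean log2 signal over the 3 wild type control arrays for every measured gene of 35 gene lists (points), with the median of each list as a black bar, the number of genes in parentheses and the off-tissue level of 6.70 dashed. All points of the colonocyte, goblet cell, keratin and junction, respiratory chain and fatty acid lists lay above the level, and none of the neuron and glia, red cell and mesothelium lists did on all 3 arrays.

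Cells beneath the epithelium were mostly near or below the off-tissue level. Of 15 smooth muscle genes 3 passed. Mylk, the myosin light chain kinase, had 7.91, 8.90 and 8.75, Acta2, an actin of smooth muscle and myofibroblasts, had 8.26, 7.61 and 7.28, and Tpm2, a tropomyosin, had 7.38, 7.39 and 7.30. Actg2, the actin of gut smooth muscle, had 4.72, 4.83 and 4.77, and Des, the muscle filament protein desmin, had 6.60, 6.65 and 6.56. The smooth muscle list averaged 6.15, 5.96 and 5.95 on arrays 1, 2 and 3, against 6.15 to 8.88 on the 9 other arrays of the series. Endothelium had 1 of 18 genes above the level, Egfl7 at 7.58 ± 0.13, and 3 of 18 without array 1, while Pecam1 had 5.44, 5.14 and 5.29. Neurons and glia had 0 of 14, at a median of 4.71, mesothelium 0 of 4 and red cells 0 of 6. Hepatocyte genes gave 2 of 15 and adipocyte genes 2 of 7, or 3 of 7 without array 1. The shares for smooth muscle, endothelium, neurons, hepatocytes and adipocytes with all 3 arrays lay below the 39.4% of all genes.

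The immune cell lists lay below the share of all genes, with 26.3% for T and NK cells, 4 of 20 genes for macrophages and dendritic cells and 27.3% for neutrophils. Of 19 T and NK cell genes 5 passed, namely Zap70 (7.77 ± 0.05), Ccl5 (7.45 ± 0.26), Cd7 (7.16 ± 0.17), Cd3e (7.06 ± 0.09) and Gzma (7.04 ± 0.45). The macrophage and dendritic cell list was led by Ctss (10.86 ± 0.06), a lysosomal protease. Neutrophils had 3 of 11, with S100a8 at 4.43 ± 0.09 and S100a9 at 4.55 ± 0.15. Ptprc, the leukocyte marker CD45, had 7.14, 5.80 and 6.01 and was above the level on array 1 only.

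Several other lists differed between array 1 and the other two wild type control arrays. Of 15 B and plasma cell genes 4 passed, and the list averaged 7.42, 6.36 and 6.28 on arrays 1, 2 and 3. Igha, the heavy chain of IgA, had 12.84, 9.95 and 8.56, and Jchain, which joins IgA molecules, had 11.37, 8.20 and 7.05. Array 1 was the highest for both and array 3 the lowest. All 8 MHC class II genes were highest on array 1, where the list averaged 7.67, with 6.44 and 6.31 on arrays 2 and 3. Its invariant chain Cd74 had 9.87, 8.07 and 7.85. Of the 22 fibroblast and matrix genes 21 were highest on array 1, and the list averaged 7.02, 6.28 and 5.85. The matrix protein Sparc had 8.96, 7.78 and 6.96. Mast cells had 0 of 10 genes above the level on all 3 arrays, yet the protease Mcpt2 had 9.35, 6.22 and 6.10 and Mcpt1 8.53, 5.19 and 5.05, both above it on array 1 alone. The medians of these lists with and without array 1 were 6.14 and 5.87 for B and plasma cells, 6.71 and 6.27 for MHC class II, 6.27 and 5.95 for fibroblasts and matrix, and 5.91 and 5.74 for mast cells, and the numbers of genes above the level were the same both ways. The part of admixed stroma and immune cells in the epithelial values was not tested.

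Set beside the 9 other arrays, array 1 was not the one outside the range for these lists. The B and plasma cell list averaged 6.60 to 7.83 on those arrays, so that array 1 lay within that range and arrays 2 and 3 below it. The MHC class II list averaged 7.09 to 8.44 there and the fibroblast list 6.45 to 7.51, again with array 1 inside and arrays 2 and 3 below. Of the metabolic lists, respiratory chain genes averaged 10.67 to 10.82 on the 9 other arrays, xenobiotic genes 7.82 to 8.25 and fatty acid genes 9.52 to 9.75. Array 1 lay within each of these ranges and arrays 2 and 3 above them. Array 1 was outside for the small intestine list, at 8.22 against 6.64 to 7.88, and for the Paneth cell list, at 7.72 against 6.47 to 7.65, above the range in both. For sulfide oxidation, with 9.33 to 9.57 on the 9 other arrays, array 1 lay below the range at 9.27 and arrays 2 and 3 above it at 9.75 and 9.76. Those 9 arrays differ in diet and genotype, and the differences were not tested.

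**Figure D3:**
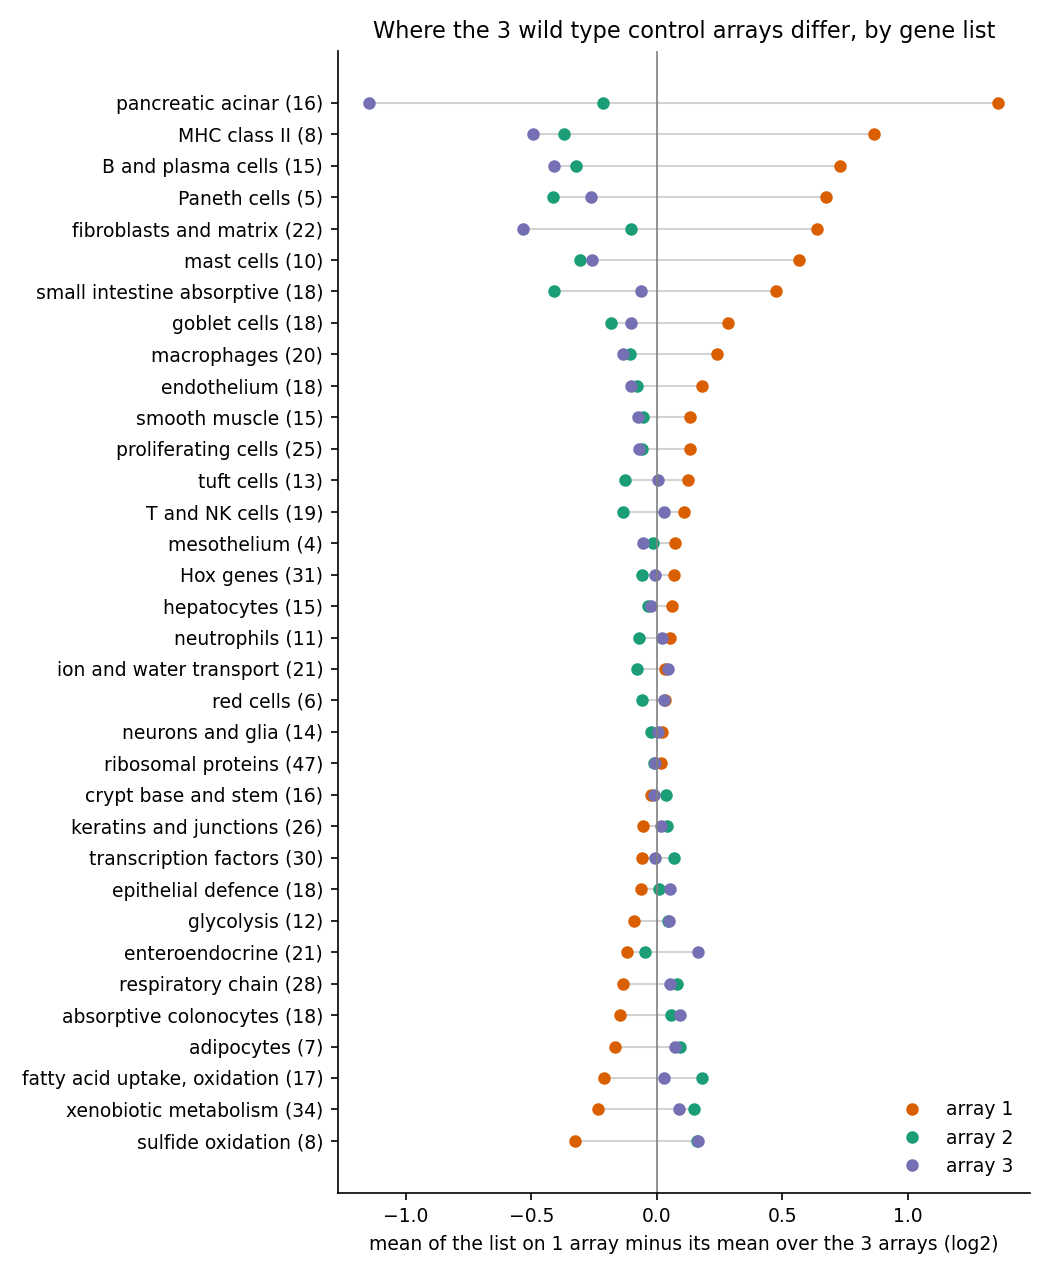
Mean of each gene list on array 1 (orange), array 2 (green) and array 3 (purple) minus its mean over the 3 wild type control arrays, in log2 units, for 34 lists with the number of genes in parentheses. Array 1 lay highest for the pancreatic acinar, MHC class II, B and plasma cell and fibroblast lists and lowest for sulfide oxidation, xenobiotic metabolism and fatty acid lists.

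Genes of other parts of the gut were also seen. Of 18 genes of small intestinal absorptive cells 10 passed, or 55.6%, against 39.4% of all genes. A range of at least 1 log2 unit over the 3 arrays was found for 10 of the 18, against 1.9% of all genes. Fabp2, an intestinal fatty acid binding protein, had 12.19, 12.73 and 12.37. The apolipoproteins Apoa1 (11.88 on array 1, with a mean of 10.77 ± 0.99) and Apoa4 (10.86, 9.45 and 9.31) and the brush border peptidase Anpep (9.29, 7.48 and 8.29) were highest on array 1. Slc10a2, the bile acid importer of the ileum, had 3.21, 5.14 and 5.48 and was lowest on array 1. The list averaged 8.22, 7.34 and 7.68 on arrays 1, 2 and 3, and its median was 6.98 without array 1, against 7.41 with it. Among 5 Paneth cell genes Itln1 (11.71, 10.94 and 10.63) and Mmp7 (7.45, 7.09 and 7.27) passed. Lyz1, lysozyme, had 9.70, 6.04 and 6.52, and Defa3, a defensin that defines the cell type, had 3.67, 3.65 and 3.70. The median of the Paneth cell list was 6.28 without array 1 and 7.27 with it.

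Pancreatic acinar enzymes gave the widest differences between pools. Of 16 measured genes 5 passed, namely Cela1, Sycn, Clps, Ctrb1 and Prss2. All 16 were highest on array 1, and 14 had a range of at least 1 log2 unit, against 1.9% of all genes. Ctrb1, chymotrypsinogen, had 9.88, 8.62 and 6.90, Prss2, trypsinogen, had 9.60, 7.96 and 7.17, and Clps, colipase, had 10.38, 8.72 and 8.15. The transcription factor Ptf1a, which defines acinar cells, had 5.53, 5.21 and 5.26 and stayed below the level, as did the granule protein Gp2 with 5.68, 5.19 and 4.88. The list averaged 8.65, 7.08 and 6.15 on arrays 1, 2 and 3 and between 6.28 and 9.28 on the 9 other arrays of the series, so that the spread within the wild type control group spanned most of that of the whole series. Its median was 6.20 without array 1 and 6.86 with it. The source of this RNA was not tested.

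The spread over the 3 arrays was small for most probe sets. The median SD was 0.11 log2 units, and 95% of probe sets had an SD below 0.34. The median SD hardly changed with signal, between 0.08 and 0.12 over 10 bins of equal size by signal, with 0.08 in the dimmest. The upper part of the spread was wider at high signal, with a 95th percentile of the SD of 0.20 in the dimmest bin and 0.46 in the brightest, and with 3 and 84 probe sets of a range of at least 1 log2 unit. A range of at least 1 log2 unit was found for 415 probe sets, 1.83% of all, and a range of at least 2 for 80. Read at their brightest probe set, 235 genes, 1.9%, had such a range. Between arrays 2 and 3 alone, 56 probe sets did. Of the 415, array 1 was farthest from the middle value in 331, in 213 as the highest and in 118 as the lowest, with 47 for array 2 and 36 for array 3. Other probe sets of the same genes behaved alike. For 76 varying genes the array held a further probe set above the level, 98 in all, and 78 of these had the same highest and the same lowest array.

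**Figure D4:**
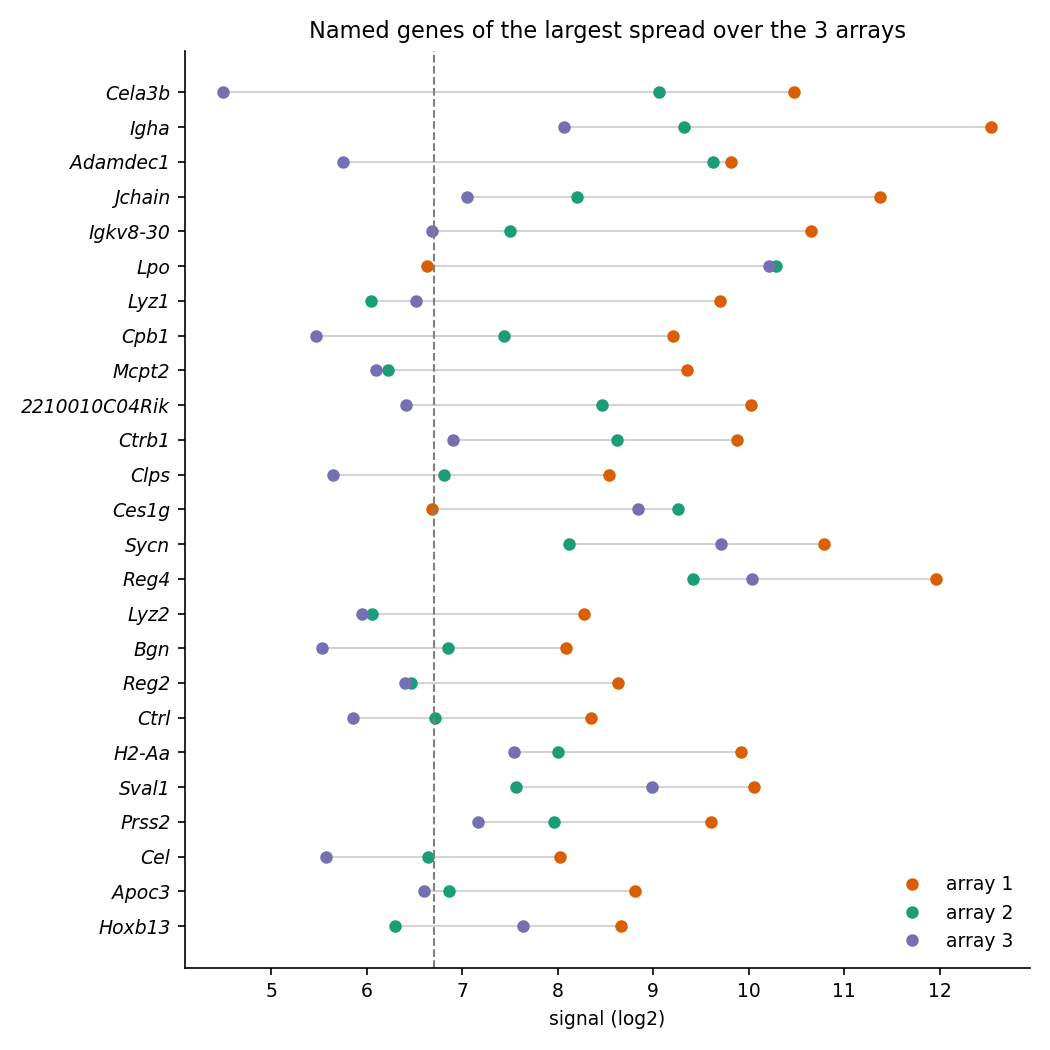
Log2 signal on arrays 1 (orange), 2 (green) and 3 (purple) for the 25 genes of the largest SD among probe sets with a mean above the off-tissue level, which is dashed at 6.70. Cela3b, at the top, had 10.47, 9.06 and 4.50 on arrays 1, 2 and 3. Most genes were highest on array 1, and Lpo and Ces1g were lowest there.

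The 25 genes of the largest spread, each read at its most variable probe set with a mean above the level rather than at its brightest, fell into a few kinds. Cela3b thus had 10.47, 9.06 and 4.50 here and a mean of 8.24 at its brightest probe set. Acinar or pancreatic genes were Cela3b, an elastase (10.47, 9.06 and 4.50), Cpb1, a carboxypeptidase (9.21, 7.44 and 5.47), 2210010C04Rik (10.02, 8.46 and 6.41), Ctrb1, Clps, Sycn, Ctrl, Prss2, Cel and Reg2. Genes of plasma cells, mast cells, macrophages and antigen presentation were Igha, Jchain, Igkv8-30 (10.65, 7.50 and 6.68), Mcpt2, Lyz2 (8.28, 6.06 and 5.95) and H2-Aa (9.92, 8.00 and 7.54). Matrix and gut genes included Bgn (8.09, 6.85 and 5.53), Reg4, a secretory cell lectin (11.96, 9.42 and 10.03), Apoc3 (8.81, 6.86 and 6.60), Lyz1, Sval1 (10.06, 7.56 and 8.99) and Hoxb13. Adamdec1, a protease made by stromal cells and macrophages, had 9.81, 9.63 and 5.75 and was low on array 3. Against this run, the peroxidase Lpo had 6.63, 10.29 and 10.21, and the carboxylesterase Ces1g had 6.68, 9.26 and 8.84.

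Single probe sets were then counted whose mean was above the level and whose value on an array lay at least 1 log2 unit from both other arrays, whether or not they were the brightest of their gene. By this rule array 1 was higher for 55 genes and lower for 24. Array 2 was higher for 3 and lower for 8, and array 3 was higher for 0 and lower for 12. These counts overlap. Cela3b, Igha, Jchain, Cpb1, 2210010C04Rik, Ctrb1, Clps, Bgn and Cel were counted both as higher on array 1 and as lower on array 3. Sycn, Sval1, Hoxb13 and Eno3 were counted both as higher on array 1 and as lower on array 2. The genes named in this paragraph were chosen after their values were seen. The 55 were called among all 12393 genes. The acinar list held 9 of them among its 16 genes, the small intestine list 6 of 18 and the fibroblast list 5 of 22. The MHC class II list held 4 of 8, the B and plasma cell list 3 of 15 and the goblet cell list 2 of 18. The Paneth cell, macrophage and mast cell lists held 1 each, of 5, 20 and 10. The 24 were likewise called among all 12393 genes. The xenobiotic list held 4 of them among its 34 genes, the P450s Cyp4b1, Cyp2c65 and Cyp2d26 and the sulfotransferase Sult1a1. The colonocyte list held 2 of 18, Slc51a, a bile acid exporter, and Tmigd1. Cldn2, a pore-forming claudin, had 8.58, 9.96 and 10.31. The 8 genes lower on array 2 were Sycn, Sval1, Hoxb13, Eno3, Atp12a, Tgm3, Insl5 and Cldn8. Atp12a, the proton and potassium pump of the colon, had 8.22, 6.19 and 8.01, and Insl5, a peptide hormone of colonic L cells, had 7.45, 6.33 and 7.80. The 3 genes higher on array 2 were Pdk4, a switch from glucose to fat oxidation (6.43, 8.43 and 6.83), Acaa1b, a peroxisomal thiolase (6.84, 8.71 and 7.67), and Cpn1 (6.89, 8.54 and 7.54).

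The label was set beside its markers. The lists were chosen with earlier results of these data known, so the counts are no independent check of the label. All measured colonocyte, goblet cell and junction genes passed. Of the other tissue lists, smooth muscle had 3 of 15 genes above the level, fibroblasts and matrix 4 of 22 and endothelium 1 of 18. Neurons and glia and red cells had none of 14 and 6. Small intestinal absorptive cells had 10 of 18 (55.6%), Paneth cells 2 of 5, pancreatic acinar cells 5 of 16 and MHC class II 4 of 8. The share over all genes was 39.4%. The male sex of the mice could not be checked, since the 3 measured genes of the Y chromosome, Kdm5d (5.71 ± 0.13), Uty (5.19 ± 0.06) and Eif2s3y (5.18 ± 0.23), were below the level, and Xist, the transcript of the inactive X chromosome, stood at 6.69 ± 0.20 at its brightest probe set.

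Promoter sequence was set beside signal for 9882 genes whose start was found in RefSeq (assembly GRCm38.p6). It covered 250 bases before and 50 bases after the start. Where several starts were listed for a gene, only the first listed was used, which need not be the one used in colon. The ratio of observed to expected CG dinucleotides, which is high in the CpG islands of widely used genes, exceeded 0.6 in 61.2% of measured genes and in 36.4% of all promoters of the table. In 10 bins of equal size by signal the share was 70.6% in the brightest and 38.1% in the dimmest, and the maximum of 77.9% came in the third bin. Among the 83 promoters found for the 100 brightest genes the share was 61.4%. The lists differed in this respect. A ratio above 0.6 was found in 6.67% of 15 colonocyte promoters and 11.1% of 9 goblet cell promoters, but in 94.4% of 18 promoters of the respiratory chain, with median ratios of 0.18, 0.27 and 0.84. Keratin and junction genes had it in 36.8% of 19 promoters. Low shares were common to lists of other cell types, with 2.22% of 45 off-tissue promoters, 6.67% of 15 acinar promoters and 0 of 11 T and NK cell promoters.

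The TATA box motif TATAAA, read on the gene's strand with its first base 40 to 15 bases before the start, was found in 2.91% of measured genes and in 2.33% of all promoters. It was present in 2.81% of the promoters of the brightest bin, 1.09% in the third bin, the lowest share, and 5.79% in the dimmest bin. Among the 83 promoters found for the 100 brightest genes the share was 7.23%. The off-tissue genes had it in 28.9% of 45 promoters and the colonocyte genes in 2 of 15. A motif match is a description of the letters and not of binding.

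The 150 bases before the start are shown for 4 epithelial genes and a respiratory chain gene, picked after their values were seen, to show how their content of CG and TATAAA differed. Capitals mark CG dinucleotides and the TATAAA motif.
Guca2a: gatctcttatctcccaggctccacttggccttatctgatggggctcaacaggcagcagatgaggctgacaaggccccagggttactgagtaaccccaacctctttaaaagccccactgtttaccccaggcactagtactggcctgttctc
Krt20: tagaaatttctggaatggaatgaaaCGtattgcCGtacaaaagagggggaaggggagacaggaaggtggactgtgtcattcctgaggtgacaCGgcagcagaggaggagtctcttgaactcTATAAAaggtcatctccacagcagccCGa
Slc26a3: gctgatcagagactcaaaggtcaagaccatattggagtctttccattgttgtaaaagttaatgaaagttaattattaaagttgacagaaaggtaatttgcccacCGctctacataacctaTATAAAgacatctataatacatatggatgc
Cyp2c55: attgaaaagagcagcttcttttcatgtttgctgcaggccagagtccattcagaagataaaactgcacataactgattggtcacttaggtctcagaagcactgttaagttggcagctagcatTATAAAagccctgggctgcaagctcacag
Cox5a: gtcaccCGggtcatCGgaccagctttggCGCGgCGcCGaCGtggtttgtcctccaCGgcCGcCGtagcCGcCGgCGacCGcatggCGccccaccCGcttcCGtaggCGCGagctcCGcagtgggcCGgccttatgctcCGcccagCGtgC
These lay at chr4:119637582-119637731 (plus strand), chr11:99438154-99438303 (minus strand), chr12:31438069-31438218, chr19:39006869-39007018 and chr9:57521082-57521231 (plus strand). Cox5a, the respiratory chain gene, held 23 CG dinucleotides in this stretch. Krt20 held 4, Slc26a3 held 1, and Guca2a and Cyp2c55 held 0. TATAAA began 29 bases before the start in Krt20 and Cyp2c55 and 30 before it in Slc26a3, and was not found in that window in Guca2a or Cox5a. Krt20 and Slc26a3 were the only 2 of 15 colonocyte promoters that held it, so the genes shown do not give its share. All 5 genes were far above the level, with 13.23 for Guca2a, 12.69 for Cyp2c55, 12.41 for Krt20, 12.18 for Cox5a and 10.28 for Slc26a3.

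**Figure D5:**
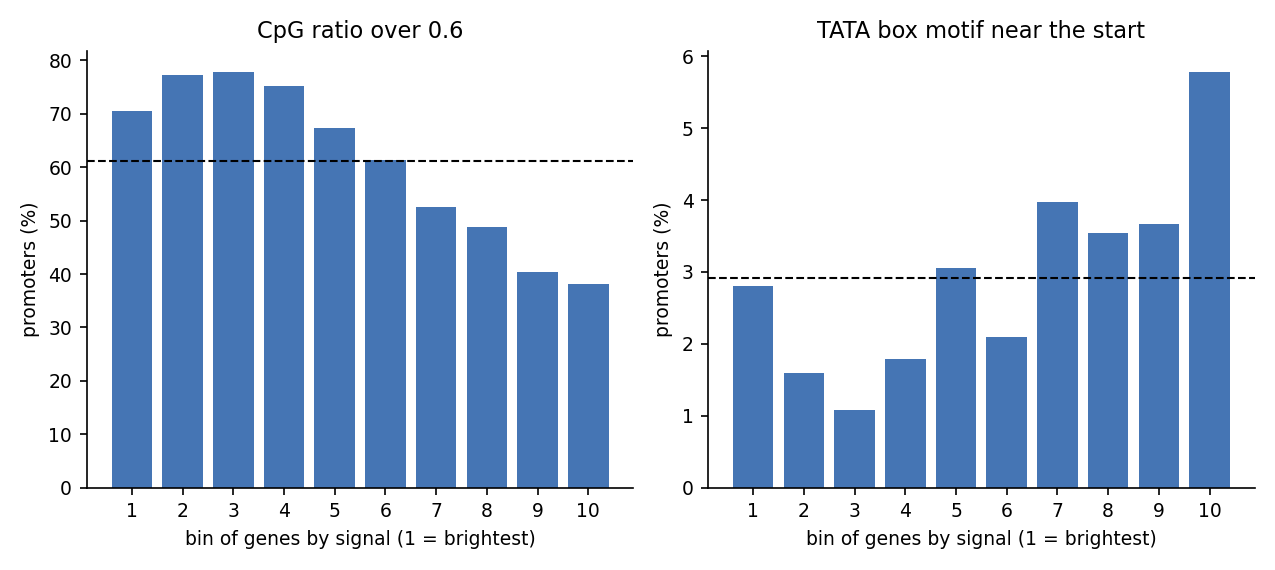
Share of promoters (percent) with a ratio of observed to expected CG above 0.6 (left) and with TATAAA between 40 and 15 bases before the start (right), for measured genes ranked by mean signal over the 3 wild type control arrays in 10 bins of equal size (1 = brightest). Dashed lines give all measured genes with a promoter, at 61.2% and 2.91%. The left bars fall to 38.1% in the dimmest genes and the right bars reach 5.79% there.

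Gene length and chromosome were the last features compared. The 100 brightest genes spanned a median of 5.57 kb on the genome, against 20.1 kb over all measured genes. Of these 100 among 12393 genes, 21 encoded ribosomal proteins and 13 respiratory chain or ATP synthase subunits. The colonocyte, goblet cell and keratin or junction lists, of 18, 18 and 26 measured genes, gave 7 each. Krt20 is on both the colonocyte and the keratin or junction list and was counted in each. By chromosome, the share of genes above the level was 46.6% on chromosome 17 and 29.4% on the X chromosome, with 0 of 8 on the Y chromosome.

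Different probe sets of a gene often gave different levels. Of 4956 genes with several probe sets, the brightest and the dimmest differed by a median of 1.51 log2 units (quartiles 0.73 and 2.55), and by at least 2 in 37.4%. The largest gaps were 9.11 for Tmsb10, 8.94 for Rpl41, 8.59 for Tpt1, 8.56 for Cox5b and 8.42 for Anxa2, a membrane-binding protein. Among 2565 such genes with the brightest probe set above the level, 1707, or 66.5%, had their dimmest one below it.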

How the data were processed

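The deposited table held log2 signal for 22690 probe sets. The authors' values were taken to be log2 because they had 2 decimals and stayed below 14.1. Per the submitters' processing notes MAS5 and RMA were used, without version or role, and it stays unknown which of them made the table. The labels describe the pools of 3 mice. No column belonged to another series (0).

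The 64 control probe sets were left out. Symbols came from the array's annotation table, which can be old: 20380 probe sets had 1 symbol, 691 several and 1555 none, and only the first were named. A gene was read at its brightest probe set, except where spread and array patterns were counted over single probe sets. The members and lists were chosen with earlier results of these data known. Genes were named by rule: the 30 brightest, up to 5 highest and 2 lowest of each list, all transcription factors, Hox and sex-linked genes, the 25 of the largest SD above the level, the 5 with the greatest gap between probe sets, and a short list of standard markers. Gcg, members of gene families and genes said to be chosen after their values were seen were among those named outside this rule. No test was made, and no p-value is given. Promoters came from RefSeq. Some genes, among them the gene deleted in the null line, are not analysed here. Calculations used Python 3.11.15, numpy 2.4.6 and pandas 2.3.3 and were tested on simulated data. Alternatives were each array left out, quantile normalization, a common median, other levels and other rules for probe sets.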

Additional observations from a re-analysis of the deposited data

How the results depend on the processing

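The 3 arrays limit all values of spread, and signal near the off-tissue level cannot be told from background. No paired analysis was possible because no test was made. With each array left out in turn, the number of probe sets with a range of at least 1 log2 unit was 56 to 349, against 415 with all arrays, and 56 was the value without array 1. Leaving out an array also lowers a range by construction. The median SD was 0.078 to 0.11, again lowest without array 1, and the number of genes above the level was 4866 to 5158. The first count was 80 for a range of at least 2 and 232 among probe sets with a mean above the level. Genes above the level numbered 3135 with the 99th percentile of the off-tissue genes and 8865 with their median, against 4884. With a brightest bin of 5% of genes in place of 10%, the share with a CG ratio above 0.6 was 66.7%, against 70.6%. Quantile normalization and a common median moved no count by over 1.5 times and no list median by its spread. Of 32 list medians, 16 moved by more than their spread with the median of a gene's probe sets in place of the brightest, at most by -1.26, and 6, 2 and 1 did so without arrays 1, 2 and 3, with -0.99 as the greatest fall, for the Paneth cell list without array 1.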

Other observations

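The members of some gene families, chosen after the values were seen, are given by signal. The shares above the level for carbonic anhydrases (43.8%), claudins (38.9%) and aquaporins (37.5%) were close to the 39.4% of all genes. Of 16 carbonic anhydrases 7 lay above the off-tissue level on all 3 arrays, Car1 (13.02 ± 0.36, SD, n = 3), Car2 (11.80 ± 0.29), Car4 (11.58 ± 0.13), Car9 (8.11 ± 0.10), Car12 (7.74 ± 0.93), Car8 (7.42 ± 0.41) and Car13 (7.28 ± 0.08), and Car10 had the lowest signal at 2.99 ± 0.02. Of 18 claudins 7 did, with Cldn7 (12.02 ± 0.07) and Cldn3 (11.79 ± 0.09) at the head and Cldn11 last at 3.28 ± 0.04. Of 36 keratins 7 did, or 19.4%, namely Krt8, Krt19, Krt20, Krt18, Krt7, Krt4 (6.97 ± 0.08) and Krt81 (6.89 ± 0.03). The epidermal keratins Krt5 (6.21 ± 0.02) and Krt1 (6.01 ± 0.07) were among those that did not. Of 8 measured aquaporins Aqp8 (10.01 ± 0.41), Aqp4 (9.61 ± 0.36) and Aqp1 (8.26 ± 0.50) passed. Of 9 Toll-like receptors, which sense microbes, Tlr3 alone passed on all 3 arrays, at 7.00 ± 0.19. Tlr2 had 6.28, 6.80 and 6.84 and lay above the level on arrays 2 and 3 only.

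Among 8 caspases 5 passed, including Casp8 (9.38 ± 0.15), which starts apoptosis, and Casp1 (8.86 ± 0.17) and Casp4 (8.60 ± 0.14), which act in inflammasomes. Among 61 potassium channel genes 8 passed, 13.1%, against 39.4% of all genes. Kcnq1 (8.42 ± 0.22), Kcnn4 (8.22 ± 0.07) and Kcne3 (7.99 ± 0.05), known for basolateral potassium exit during chloride secretion, were among them. Of 11 connexins Gjb1 alone passed at 7.34 ± 0.15. The motif CAAAGTCCA, a site type of the nuclear receptor HNF4, was searched on both strands after the values were seen. It was found in 0.48% of all promoters, 0.56% of measured genes and 1.16% of the brightest of 10 bins of genes by signal. The share was 0.20% in the second brightest bin, 0.72% in the dimmest bin and 0 in the 83 promoters found for the 100 brightest genes. The 12 genes of the brightest bin were Rpl11, Cyp2c65, Abcd3, Trim31, Ankrd13a, Rpl22l1, Ppp1cc, Hsd3b3, Cyp3a11, Slc3a1, Rsrp1 and B3gnt3.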
